A study of Mus musculus with 6 samples.

Results

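Among the transcripts of mouse oocytes, 211 carried a name taken from a genomic clone and were abundant. They were the symbols of the expression table that begin with RP23- or RP24- and whose mean expression over the 6 libraries was 20 RPKM or more (RPKM divides the reads of a gene by its length and by the total of its library). They made up 211 of the 53656 symbols in the table and 211 of its 23090 symbols with those prefixes. They were chosen by their mean RPKM, a measured value, so their abundance is a description without a test. That mean pools both genotypes, so a transcript that is high in 1 genotype alone can enter through it.

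A clone-based name is a provisional label that manual genome annotation gives to a locus without an approved gene symbol. The prefixes RP23 and RP24 stand for libraries of bacterial artificial chromosomes made from mouse genomic DNA, the letters and numbers after the prefix are the address of 1 clone, and the number after the dot counts the loci annotated on it. Loci of this kind include long non-coding RNAs, pseudogenes and unconfirmed gene models. An oocyte stores RNA while it grows, when transcription is active, and transcribes little once it is fully grown, so that its RNA includes many long-lived transcripts.

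The 6 libraries were made from oocytes dissected by hand from ovaries, 3 from wild-type mice (WT) and 3 from Khdc3-null mice (KO). The Khdc3 protein, or Filia, belongs to the complex of maternal proteins under the egg surface, and the question was which oocyte transcripts differ in its absence. Strain, age, oocyte stage, the number of oocytes and whether replicates came from separate animals are not stated in the labels. P-values therefore cover the spread between these 6 libraries, which may be technical. Khdc3 itself stood at 423, 425 and 502 RPKM in the WT libraries and at 0.224, 0.217 and 0.113 RPKM in the KO libraries (exact two-sided permutation p = 0.1, the smallest that 3 libraries against 3 allow), so its level matched the label of each library.

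Library totals recovered from the RPKM values were 34640170 to 43343444 reads. All 12 oocyte markers examined were in the table, with a summed level of 12577 to 13572 RPKM in WT and 12375 to 12702 RPKM in KO. The 15 granulosa and cumulus markers summed to 218 to 353 RPKM in WT and 392 to 505 RPKM in KO, with 2 of 15 higher in every KO library than in every WT library. The 9 stromal and smooth muscle markers summed to 23.4 to 31.2 RPKM in WT and 30.8 to 40.5 RPKM in KO, with 4 of 9 higher and 1 of 9 lower in every KO library. Of the stromal markers 1, Acta2, the actin of smooth muscle, was called in the test below, higher in KO, and none of the other lists held a called marker. Of the 12 oocyte markers 1 was higher and 2 were lower in every KO library. Over all tested symbols, 13.5% were higher and 12.2% lower in every KO library. The 6 theca and luteal markers summed to 23.8 to 132 RPKM in WT and 102 to 125 RPKM in KO, the 4 endothelial markers to 17.6 to 19.0 and 14.3 to 18.3 RPKM, the 4 leukocyte markers to 1.92 to 2.13 and 2.05 to 2.26 RPKM, and the 4 erythroid markers to 16.1 to 68.1 and 8.49 to 66.0 RPKM. Of these 18 markers 2 were higher and 1 was lower in every KO library. No marker of these lists was at 0 in all libraries. The part of follicular or stromal RNA in the member values given below was not tested, and in bulk libraries fewer cells of a type cannot be told apart from less RNA per cell.

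No member could be placed in the genome. None of the 211 names was found among the symbols of the GENCODE M21 annotation or among the symbols and synonyms of the RefSeq gene table for GRCm38.p6, so no gene name, position, biotype or sequence is given for them. Their lengths could be recovered, because an RPKM value is a whole number of reads divided by the gene's length and the library total. For all 211 members a length was found that gave whole reads in every library at a tolerance of 0.0001. The smallest such length is reported, and it may be too short by a common factor. In 2482 symbols whose annotated length gave whole reads and whose mean was also 20 RPKM or more, the smallest length equalled the annotated one in 99.4%.

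The members were short. Their recovered lengths ran from 132 to 11447 nucleotides with a median of 1108, against a median of 3102.5 nucleotides in the 2810 other symbols with a mean of 20 RPKM or more. There were 30 members under 500 nucleotides and 7 over 5000 nucleotides. Mean reads per library ran from 217 to 132594, with a median of 2313, and 21 members held more than 10000 reads on average. In 3 members at least 1 library held fewer than 100 reads, with a lowest count of 18. Of the members 153 were named from RP23 clones and 58 from RP24 clones.

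Abundance was concentrated in a few members. The most abundant symbol of the whole table was a member, RP23-176J13.11, and 4 of the 25, 11 of the 100 and 36 of the 500 most abundant symbols were members. There were 4 members at 1000 RPKM or more, 10 at 500 or more, 36 at 100 or more and 85 at 50 or more, and the remaining 126 lay between 20 and 50 RPKM. The median member stood at 39.9 RPKM. Just inside the limit lay RP23-334O19.2, RP23-354M9.1 and RP23-281H4.3, with means of 20.11, 20.10 and 20.07 RPKM, and just outside it RP23-285H4.2, RP23-228E2.8 and RP23-116N15.7, with means of 19.9, 19.6 and 19.4 RPKM.

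**Figure D1:**
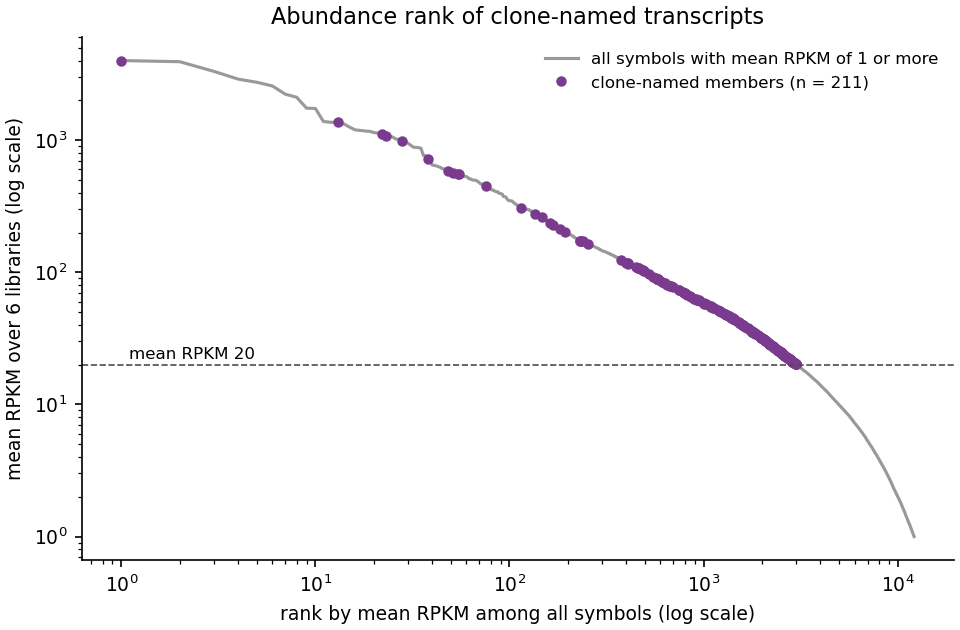
Mean RPKM over the 6 libraries against rank among all symbols, both on log scales, with the grey line for every symbol at a mean of 1 RPKM or more and a point for each of the 211 clone-named members. Members sit at rank 1 and then along the whole curve down to the limit of 20 RPKM (dashed), most densely between 20 and 50 RPKM.

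RP23-176J13.11, with a recovered length of 833 nucleotides, stood at 3828, 4141 and 4233 RPKM in WT replicates 1, 2 and 3 and at 4658, 3548 and 3621 RPKM in KO replicates 1, 2 and 3. KO replicate 1 was the highest and KO replicates 2 and 3 were the lowest of the 6 libraries, so the groups overlapped. Its WT mean was 4067 ± 213 RPKM and its KO mean 3943 ± 621 RPKM (SD, n = 3 each), and the log2 change of KO against WT had a 95% interval of -0.31 to 0.20 (limma, adjusted p = 0.82). This single symbol held 1.25% of the RPKM sum and rested on 110445 to 152306 reads per library.

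Most of the next abundant members had smaller differences between libraries, and RP24-399H1.3, the second in abundance, is described with the rises below. RP23-266O23.1 stood at 1058, 1030 and 1109 RPKM in the WT libraries and at 1231, 1141 and 1160 RPKM in the KO libraries. The groups did not overlap, yet the change of 0.14 ± 0.06 on the log2 scale (SE) missed the threshold (limma, adjusted p = 0.26). RP24-423N7.1 had means of 1040 ± 72.6 and 1122 ± 105 RPKM in WT and KO, RP23-161F5.2 of 970.4 ± 86.4 and 1007 ± 35.8 RPKM, and RP24-108G5.1 of 722 ± 59.6 and 717 ± 49.2 RPKM (SD, n = 3 each). In each of these 3 the groups overlapped. RP23-323L3.5 had means of 543 ± 7.80 and 559 ± 30.0 RPKM and also overlapped. RP23-83N10.1 was higher in every KO library, at 614, 599 and 625 RPKM against 513, 550 and 504 RPKM in WT, but missed the threshold (limma, adjusted p = 0.089). Of the 10 most abundant members 5 had groups that did not overlap, and 1 of these, RP24-399H1.3, passed the test. Over all tested symbols the groups did not overlap in 25.8%, and 2.74% passed. With only 10 members, nothing is read from this difference.

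Together the members held 7.09%, 7.20% and 7.27% of the RPKM sum in WT replicates 1, 2 and 3 and 7.77%, 7.13% and 7.20% in KO replicates 1, 2 and 3. The means were 7.18% ± 0.0862 in WT and 7.37% ± 0.351 in KO (SD, n = 3 each), and the groups overlapped. KO replicate 1 was the highest library, and without it the KO mean was 7.17%. The 10 most abundant members accounted for 48.6% to 50.3% of the members' sum, and RP23-176J13.11 alone for 15.7% to 18.3% of it.

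The share was smaller when reads were counted. Members held 3.37%, 3.41% and 3.51% of the reads in the WT libraries and 3.81%, 3.48% and 3.50% in the KO libraries, because RPKM divides by length and the members were shorter than the other abundant symbols. KO replicate 1 was again the highest library. All 23090 clone-named symbols, 43.0% of the table, held 9.83% of the RPKM sum on average, of which the members held 7.28%, and 9746 of them were at 0 in every library. Among other provisional names, the 5147 symbols of Gm and a number held 1.25% of the sum, with 12 at 20 RPKM or more, the 1631 other clone or accession names held 0.847%, with 26 at 20 RPKM or more, and the 162 symbols ending in Rik held 0.131%, with 5.

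**Figure D2:**
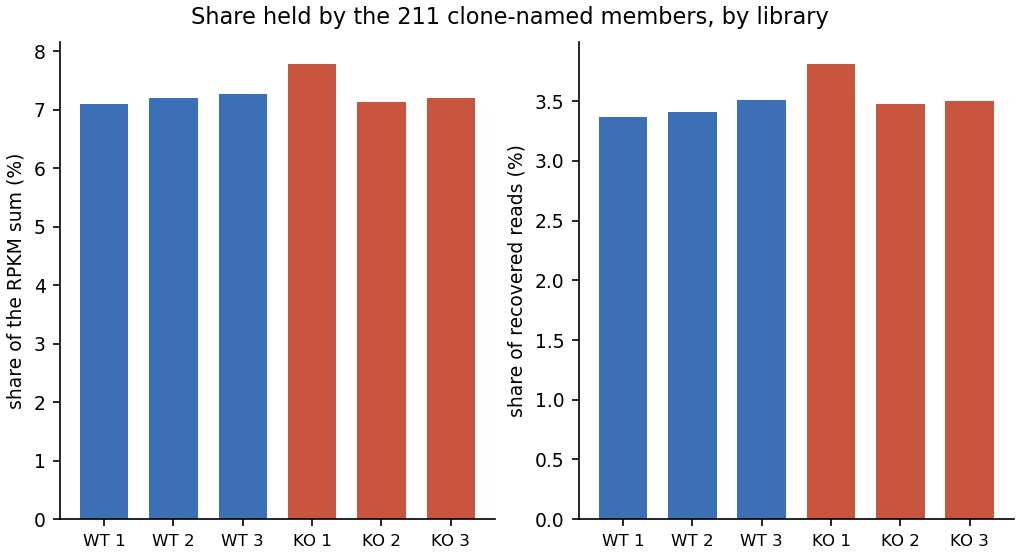
Share of the summed RPKM (left, percent) and of the recovered reads (right, percent) held by the 211 members, 1 bar per library, WT in blue and KO in red. KO replicate 1 is the highest bar in each panel, at 7.77% of RPKM and 3.81% of reads, and the other 5 libraries lie close together.

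KO replicate 1 stood apart for the members in level as well. It was the highest of the 6 libraries in 112 of 211 members (53.1%) and in 38.0% of the 2810 other symbols at 20 RPKM or more. Its level was a median of 1.16 times the mean of KO replicates 2 and 3 over the members, and 1.04 times over those other symbols. Length went with this ratio. It was 1.21 in the 105 members shorter than the members' median and 1.12 in the 106 others, and among the other symbols it was 1.23 in the 212 shorter ones and 1.02 in the 2598 longer ones. The summed RPKM of the library, 333198, was also the highest, against 314253 to 323335 in the other 5. The part of library make-up in these ratios was not tested.

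Within a genotype, the coefficient of variation of the median member was 7.49% in WT and 11.8% in KO, against 5.08% and 7.33% for the other symbols at 20 RPKM or more. A few members varied far more than this. In 6 members the highest library of a genotype was more than 2 times the lowest, and the 4 widest are described here. RP23-360H6.2 stood at 30.4, 27.3 and 29.4 RPKM in the WT libraries and at 26.8, 14.1 and 1.20 RPKM in KO replicates 1, 2 and 3, with 363, 196 and 18 reads in the KO libraries. All 3 KO libraries lay below WT, but they spanned a 22.3-fold range and the change missed the threshold (limma, adjusted p = 0.31). RP23-17K9.14 stood at 3.61, 16.7 and 35.2 RPKM in WT replicates 1, 2 and 3, on 85, 462 and 968 reads, and at 39.3, 29.9 and 36.6 RPKM in KO. WT replicate 3 lay within the KO range, so the groups overlapped. RP24-338N17.1 ranged from 13.9 RPKM in WT replicate 2 to 35.6 RPKM in WT replicate 3, below all KO values of 37.4, 49.2 and 50.1 RPKM (adjusted p = 0.15). RP24-475C24.13 was low in WT replicate 1 alone, at 9.78 RPKM, against 20.7 and 22.6 RPKM in the other WT libraries and 23.4 to 25.4 RPKM in KO.

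The genotypes were compared across all 12272 symbols that reached 1 RPKM in 3 libraries or more, on log2(RPKM + 1), with limma and Benjamini-Hochberg adjustment over all of them. A fold change on this scale understates the change of low symbols. All 211 members entered the test and were at 1 RPKM or more in every library. At an adjusted p under 0.05, 8 members were higher and 8 lower in KO. The 16 are 7.58% of the members, while 2.74% of all tested symbols were called in the same comparison (1.6% higher and 1.14% lower). Of the 2810 other symbols with a mean of 20 RPKM or more, 2.49% were called (1.07% higher and 1.42% lower), and of all 1757 tested clone-named symbols 4.1% were (2.56% higher and 1.54% lower). The count of members called higher was 5, 5, 4 and 5 without WT replicate 1, WT replicate 2, KO replicate 2 and KO replicate 3, and the count called lower was 5, 4, 4 and 4 without WT replicate 2, WT replicate 3, KO replicate 2 and KO replicate 3. Of the 211 members, 25 had a mean under 20 RPKM in 1 genotype and entered through the other. They include 7 of the 16 called members, 2 of those called higher and 5 of those called lower, and a member that enters this way has to differ between the genotypes. Of the 186 members with means of 20 RPKM or more in both genotypes, 9 were called. The 2810 other symbols were chosen by the same pooled mean. How many of those entered through 1 genotype is not given here. The excess over the background is not read as a result about the members, and its source was not tested. In 3 of the members called higher and 3 of those called lower the change was at least 2-fold. The median log2 change of the members was 0.05, with 59.7% positive, against 0.01 and 53.1% for all tested symbols. Without KO replicate 1 the median of the members was -0.01.

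**Figure D3:**
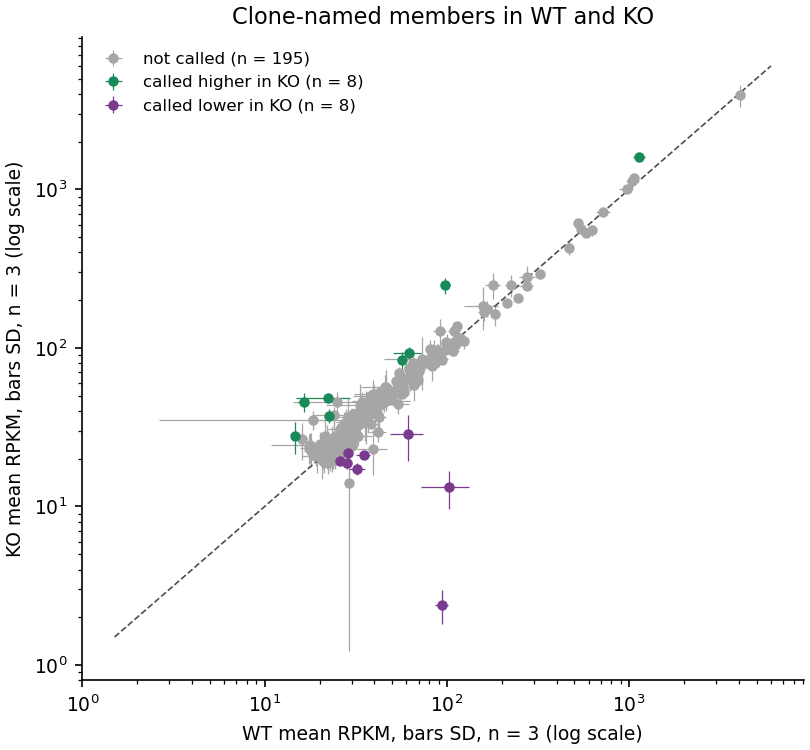
Mean RPKM in KO against mean RPKM in WT for the 211 members, both on log scales, with bars for the SD over 3 libraries and a dashed line of equal levels. Most of the 195 members that were not called (grey) lie along the line, 8 called higher in KO (green) lie above it, and 8 called lower (purple) lie below it, among them RP23-178B19.8 at a KO mean of 2.40 RPKM.

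RP23-178B19.8 was the member with the largest fall. It stood at 89.0, 89.8 and 103 RPKM in the WT libraries and at 2.52, 1.76 and 2.92 RPKM in the KO libraries. All WT libraries lay close together and far above KO, whose mean was 2.56% of the WT mean. On the log2(RPKM + 1) scale, which understates changes at such low values, the change was -4.81 with an SE of 0.13 (limma, adjusted p = 1.4e-06). It has a recovered length of 253 nucleotides, and its values rest on 780, 923 and 1051 reads in WT and on 25, 18 and 32 reads in KO. Another symbol of the same clone, RP23-178B19.1, was detected near 1 RPKM in both genotypes (mean 1.01 RPKM, adjusted p = 0.88).

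RP23-188J8.3 was the second called member with a large fall. Its values were 137, 81.8 and 88.9 RPKM in WT replicates 1, 2 and 3 and 17.1, 12.5 and 10.1 RPKM in KO replicates 1, 2 and 3. WT replicate 1 was the highest of its group and KO replicate 1 of the other, with a wide gap between the groups. The change was -2.86 ± 0.22 on the log2 scale (SE; limma, adjusted p = 5.5e-04), on 1712 to 2451 reads in WT and 225 to 345 reads in KO. The 4 other symbols named from that clone stayed under 1 RPKM in every library.

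RP23-300D11.1 fell from 68.5, 46.7 and 69.3 RPKM in WT to 39.2, 23.3 and 23.3 RPKM in KO, which is -1.10 ± 0.22 on the log2 scale (SE) with an adjusted p of 0.044 (limma). WT replicate 2 and KO replicate 1 were its nearest libraries across the groups. The other 5 falls were smaller. RP23-9A12.3 had a WT mean of 32.2 ± 3.14 RPKM and a KO mean of 17.3 ± 1.49 RPKM, and RP23-371B13.4 had means of 34.9 ± 3.15 and 21.2 ± 0.969 RPKM (SD, n = 3 each), with adjusted p of 0.0036 and 0.0054 (limma). The KO means were 53.7% and 60.8% of the WT means. RP23-25K2.5, RP23-320H13.1 and RP23-403O11.9 fell by 0.56, 0.40 and 0.39 on the log2 scale (adjusted p = 0.019, 0.049 and 0.031), from WT means of 28.2, 28.8 and 25.8 RPKM.

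Among the rises, RP23-282M14.3 and RP24-150D8.3 had the largest changes. RP23-282M14.3 stood at 15.1, 17.0 and 16.9 RPKM in the WT libraries and at 53.03, 41.4 and 43.2 RPKM in the KO libraries. The KO mean was 2.80 times the WT mean, and the log2 change was 1.43 with an SE of 0.10 (limma, adjusted p = 3.7e-04), on 257 to 340 reads in WT and 821 to 1022 reads in KO. RP24-150D8.3, at rank 230 of all symbols, stood at 94.8, 105 and 94.8 RPKM in WT and at 282, 227 and 234 RPKM in KO. The KO mean was 2.52 times the WT mean (log2 change 1.32 ± 0.09, SE; adjusted p = 3.1e-04). In both members KO replicate 1 was the highest library and the gap between the groups was wider than the spread within either. The 2 other symbols of clone RP24-150D8 were at 0 in all 6 libraries.

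RP24-399H1.3 was the most abundant member to change. It stood at 1095, 1071 and 1231 RPKM in the WT libraries and at 1606, 1571 and 1613 RPKM in the KO libraries, so that it ranked 13 of all symbols by its mean. The KO libraries lay within 1.03 times of one another and above all WT libraries. The KO mean was 1.41 times the WT mean (log2 change 0.50 ± 0.07, SE; limma, adjusted p = 0.011), on 69462 to 128119 reads per library.

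RP23-111E4.4 rose from 17.6, 18.4 and 30.5 RPKM in WT to 44.6, 49.5 and 51.3 RPKM in KO, which is 1.14 ± 0.19 on the log2 scale (SE) with an adjusted p of 0.021 (limma). WT replicate 3 lay between the other WT libraries and KO. RP23-419G22.6 rose from 14.8 ± 0.324 to 27.8 ± 6.34 RPKM, RP23-76I20.1 from 22.7 ± 1.29 to 37.2 ± 3.66 RPKM, RP24-266J20.1 from 61.7 ± 10.8 to 93.3 ± 7.50 RPKM and RP23-254N4.1 from 56.7 ± 3.28 to 83.4 ± 10.7 RPKM (means ± SD over 3 libraries). Their adjusted p were 0.022, 0.0069, 0.043 and 0.028 (limma). Of these 4, RP23-419G22.6 was the shortest and shallowest, with a recovered length of 255 nucleotides and 132 to 349 reads per library. KO replicate 1 was its highest library at 34.9 RPKM.

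**Figure D4:**
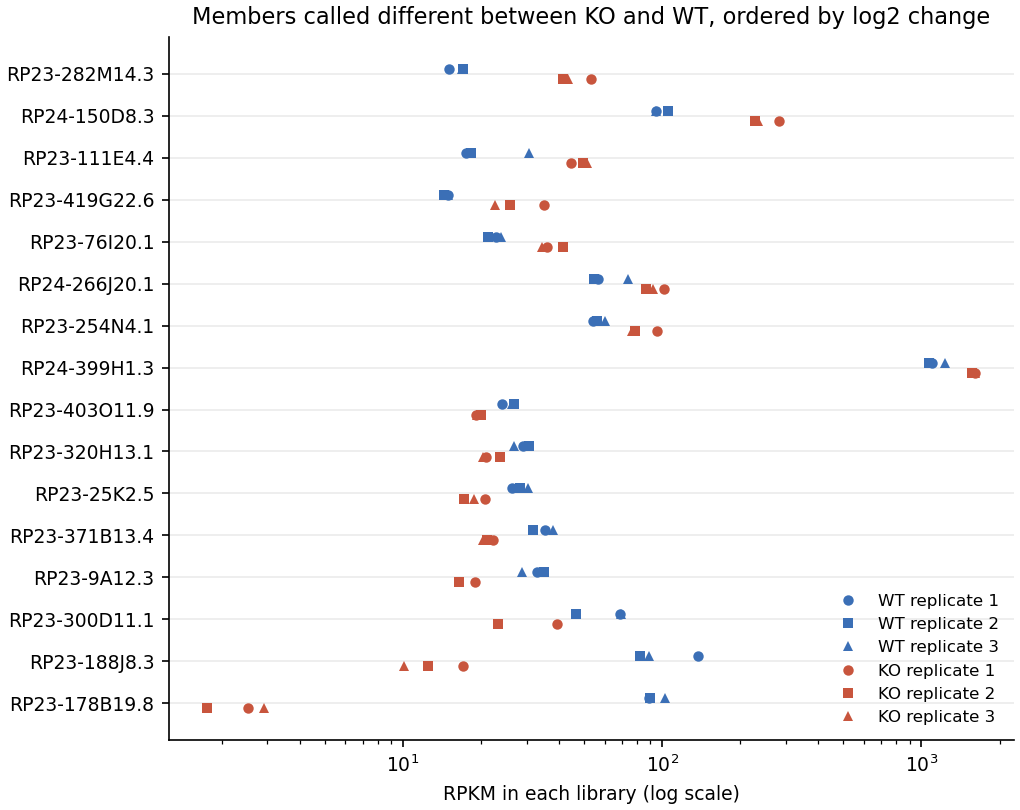
RPKM on a log scale in each of the 6 libraries for the 16 members called different between KO and WT, ordered from the largest fall (bottom) to the largest rise (top), WT in blue, KO in red, with the replicate given by the marker. In every row the 3 red points lie on one side of the 3 blue points, with the widest gap in RP23-178B19.8.

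Of the 16 calls, 7 held under each of the 15 alternatives tried, which included leaving out every library in turn. These were RP23-178B19.8, RP23-188J8.3, RP23-9A12.3, RP23-371B13.4, RP23-282M14.3, RP24-150D8.3 and RP23-76I20.1. Of these, RP23-178B19.8, RP23-188J8.3, RP23-9A12.3 and RP23-282M14.3 entered the member list through 1 genotype. Their place in the list thus depends on the difference that is tested. The other 9 of the 16 lost the call at least once, although no called member changed sign. When low values were not filtered all 9 missed the threshold, at adjusted p of 0.084 for RP23-25K2.5 and RP23-403O11.9 to 0.184 for RP23-300D11.1. RP24-399H1.3 otherwise lost its call only without KO replicate 3 (limma, adjusted p = 0.054). RP23-111E4.4 missed it without WT replicate 1 or 2 or KO replicate 2 or 3 (0.051, 0.068, 0.072 and 0.080), RP23-419G22.6 without WT replicate 1, 2 or 3 or KO replicate 2 (0.056, 0.072, 0.075 and 0.062), and RP23-25K2.5 without WT replicate 2 or 3 or KO replicate 2 or 3 (0.067, 0.072, 0.064 and 0.068). RP23-300D11.1 missed it without WT replicate 1 or 3 or KO replicate 2 or 3 (0.11, 0.141, 0.119 and 0.136). RP23-403O11.9 missed it without WT replicate 2 or 3 (0.124 and 0.107) or KO replicate 1, 2 or 3 (0.0501, 0.079 and 0.101), and RP24-266J20.1 without WT replicate 1 or 2 (0.111 and 0.133), KO replicate 1, 2 or 3 (0.088, 0.083 and 0.121), or with equal medians (0.057). RP23-254N4.1 missed it without WT replicate 1, 2 or 3 (0.082, 0.095 and 0.062) or KO replicate 2 or 3 (0.065 and 0.051). RP23-320H13.1 missed it without each of the 6 libraries in turn (0.062 to 0.171) and with pseudocounts of 0.1 and 0.5 (0.054 and 0.051).

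Separation of the groups was more common than a call. In 65 of 211 members (30.8%) every KO value lay outside the range of the WT values, 39 above it (18.5%) and 26 below it (12.3%). Of all tested symbols 25.8% were separated, 13.5% above and 12.2% below, and of the other symbols at 20 RPKM or more 26.4% were (14.3% above and 12.1% below). Of all tested clone-named symbols 23.4% were separated, 14.1% above and 9.28% below. The 25 members that entered through 1 genotype bear on this share too, and nothing about the members is read from it. All 16 called members were among the 65, and KO replicate 1 was the highest KO library in 23 of the 39. The other 49 separated members missed the threshold, 31 above and 18 below, with a median log2 change of 0.28 in those above and -0.20 in those below. In the remaining 146 members the groups overlapped.

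The largest changes among separated members that missed the threshold were in RP24-338N17.1 and RP23-360H6.2, whose values are given above. RP24-369J3.1 stood at 16.9, 16.4 and 14.8 RPKM in WT and 32.3, 28.5 and 18.9 RPKM in KO (limma, adjusted p = 0.093). KO replicate 3 lay near WT. The adjusted p was 0.0099 without it and 0.15 to 0.23 without any other single library (limma). Leaving out the library nearest the other genotype widens the gap by construction, so nothing is read from it here or below. RP23-282C23.1 stood at 30.9, 19.9 and 21.5 RPKM in WT and 31.9, 41.1 and 39.5 RPKM in KO (adjusted p = 0.091). WT replicate 1 lay near KO. The adjusted p was 0.021 without it and 0.079 to 0.25 without any other single library (limma). RP23-194K16.1 stood at 199, 171 and 168 RPKM in WT and 302, 224 and 222 RPKM in KO, and RP23-242K3.1 at 88.4, 99.9 and 85.4 RPKM in WT and 155, 120 and 106 RPKM in KO (adjusted p = 0.11 and 0.12). In each of these 2 members KO replicate 1 lay highest. RP24-475C24.13, described above, also belongs here (adjusted p = 0.32).

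On the lower side, RP23-81N4.4 stood at 31.1, 42.6 and 44.8 RPKM in WT and 14.5, 27.6 and 26.9 RPKM in KO (limma, adjusted p = 0.14). KO replicate 1 was its lowest library. RP23-149D11.2 had means of 41.9 ± 4.50 and 29.3 ± 3.95 RPKM in WT and KO, RP24-380G7.1 of 30.1 ± 2.48 and 24.1 ± 0.376 RPKM, RP23-2H11.3 of 24.2 ± 0.862 and 19.7 ± 2.09 RPKM, and RP23-101H2.1 of 24.2 ± 0.263 and 19.96 ± 2.69 RPKM (SD, n = 3 each). Their adjusted p were 0.067, 0.082, 0.13 and 0.18. KO replicate 1 lay near WT in RP23-101H2.1, at 23.0 RPKM. The adjusted p was 0.034 without it and 0.30 to 0.39 without any other single library (limma).

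Members named from the same clone come from the same stretch of genome. The 211 members came from 204 clones, of which 7 held a pair of members. In 3 pairs the members kept nearly the same ratio in every library. RP23-281O10.1 was 1.01 to 1.11 times RP23-281O10.3, and both lay lower in every KO library without passing (log2 changes of -0.18 and -0.12, limma, adjusted p = 0.21 and 0.32). RP23-37L2.2 was 0.989 to 1.11 times RP23-37L2.3, and RP23-3M10.7 was 1.18 to 1.37 times RP23-3M10.10. The ratio of RP24-475C24.11 to RP24-475C24.13 ran from 1.98 to 4.13 and was highest in WT replicate 1.

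In the other 3 pairs 1 member was called and its neighbour was not, and the difference between the members of a pair was not tested. RP24-399H1.3 rose, while RP24-399H1.1 stood at 38.1, 33.8 and 34.4 RPKM in WT and 42.1, 32.5 and 34.6 RPKM in KO (log2 change 0.03, limma, adjusted p = 0.90). RP23-111E4.4 rose, and RP23-111E4.3 was also higher in every KO library but missed the threshold. It stood at 18.9, 18.1 and 19.95 RPKM in WT and 20.7, 22.5 and 24.05 RPKM in KO (0.23, adjusted p = 0.18). The levels of these neighbours were similar in WT replicates 1 and 2 and apart in all KO libraries. RP23-403O11.9 fell, while RP23-403O11.1 stood at 85.2, 91.3 and 100 RPKM in WT and 93.3, 81.6 and 83.2 RPKM in KO (-0.10, adjusted p = 0.55).

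**Figure D5:**
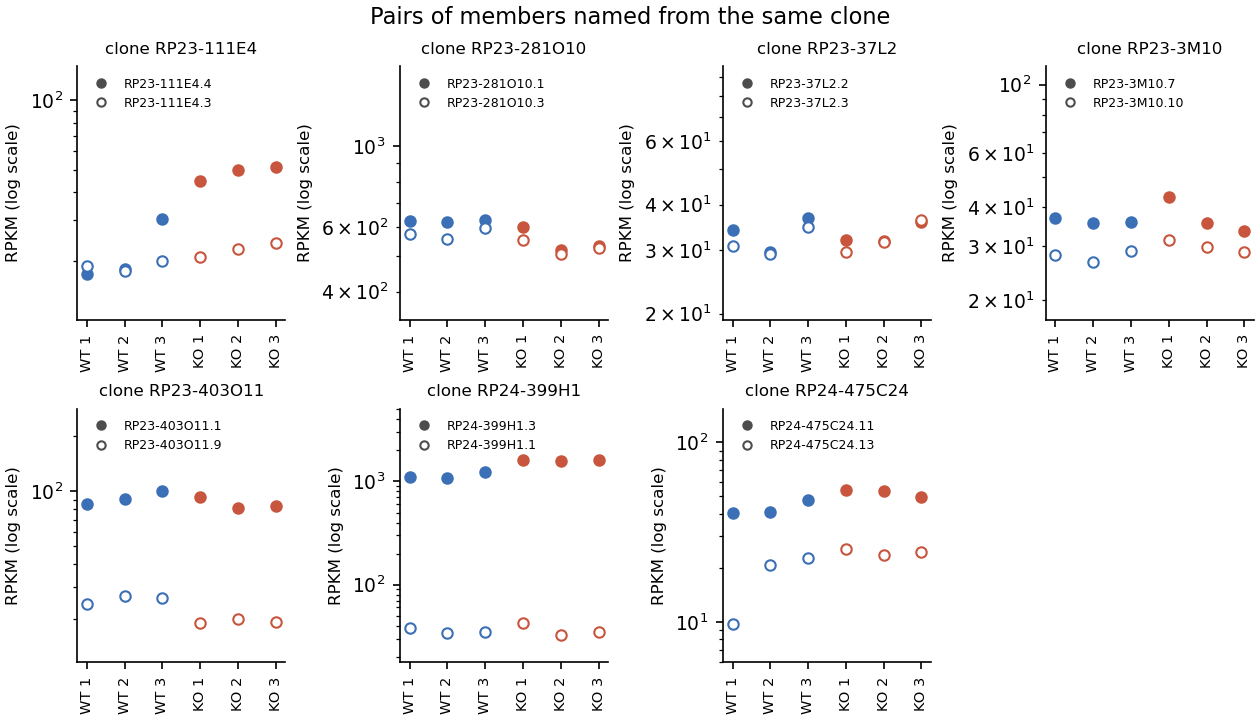
RPKM on a log scale in each of the 6 libraries for the 7 pairs of members that share a clone, WT in blue and KO in red, with filled points for the member of higher mean and open points for the other. The points of clones RP23-281O10 and RP23-37L2 run side by side. In clone RP24-399H1 the filled points are higher in KO and the open points overlap between the genotypes. In clone RP23-111E4 both are higher in every KO library, the filled points by more.

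Most other clone-named symbols of these clones had low values. Loci of the same clones under other kinds of symbol could not be matched, since no member was placed in the genome. On 151 of the 204 clones the table held 421 further symbols under 20 RPKM, with a median mean level of 0.0269 RPKM. Of these 378 (89.8%) had a mean under 1 RPKM and 133 were at 0 in every library. Low values were common in this class, where 9746 of all 23090 clone-named symbols were at 0 and 1757 were tested. Of those tested 4.1% were called, and of all tested symbols 2.74%. Only 41 of the 421 further symbols entered the test, and 1 was called. That symbol, RP23-342H16.5, which was picked out after its values were seen, stood at 1.43, 1.04 and 0.735 RPKM in WT and 3.15, 3.92 and 2.34 RPKM in KO (limma, adjusted p = 0.028). The member of its clone, RP23-342H16.3, stood at 20.4, 19.1 and 21.02 RPKM in WT and 22.4, 26.5 and 22.9 RPKM in KO (adjusted p = 0.19). RP23-342H16.1, of the same clone, went the other way, from 18.3, 16.8 and 18.0 RPKM in WT. In KO it stood at 15.2, 12.2 and 11.1 RPKM (limma, adjusted p = 0.084). On the 16 clones of called members there were 43 further symbols outside the member list, of which 17 were at 0 in every library, 2 entered the test and 0 were called.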

How the data were processed

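RNA of 3 WT and 3 KO oocyte samples was isolated with a PicoPure kit and made into strand-keeping libraries (NEB Ultra II Directional), per the labels' protocols. Per the submitters' processing notes the tools were STAR 2.6.0c, featureCounts 1.6.2 and FastQC 0.11.7, and the build GRCm38.p6. The annotation release and whether counting used strand are not given in the sources used here. Nor is it given how reads over both a member and another gene were counted. The values of members that overlap other genes may depend on this. The authors deposited RPKM values, 1 column per library, and each column was matched to a sample by the number in its description.

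Library totals were found from symbols matched to GENCODE M21, and 92.4% of the 19630 that had reads came out whole in each library (tolerance 0.01). Lengths of the members were searched up to 60000 nucleotides. The test was that of limma 3.58.1 in R 4.3.3 on log2(RPKM + 1), with a trended prior and no covariate beside genotype, for symbols that reached 1 RPKM in 3 libraries. The fit was also run on simulated reads with the same spread for every symbol and no library differences beside depth. That run therefore does not measure the error rate in these libraries. Tables and figures used Python 3.11.15, numpy 2.4.6, pandas 2.3.3 and matplotlib 3.10.9. Replicate libraries differed by more than counting noise (chi-square per degree of freedom of 16.1 or more).

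The members and lists were chosen with earlier results of these data known. Named members are the 10 most abundant, the called ones, up to 6 more in each direction whose groups do not overlap, the 4 widest within a genotype and those next to the limit of 20 RPKM. The alternatives were other pseudocounts, filters, scalings and member limits, a replicate block, library weights, each library left out, and voom on recovered reads.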

Additional observations from a re-analysis of the deposited data

How the results depend on the processing

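Of the 16 member calls, 7 were kept with no filter on low values and 8 to 13 without single libraries, against 13 to 16 under the other settings. Against 8 members higher and 8 lower, no filter on low values gave 3 and 4, library weights 11 and 13, and leaving out single libraries 4 to 7 higher and 4 to 9 lower. The count over all tested symbols, 336, was 94 with no filter, 222 with a filter of RPKM 5, 662 with library weights and 151 to 289 without single libraries. With the replicate number as a block 9 members were higher and 7 lower, 13 of them also called without it, and RP23-254N4.1, RP23-320H13.1 and RP23-403O11.9 then missed the threshold (limma, adjusted p = 0.058, 0.052 and 0.058), while RP23-194K16.1, RP23-81N4.4 and RP24-369J3.1 passed it (0.040, 0.020 and 0.048). Same-numbered libraries deviated from their group means with correlations of -0.016, 0.213 and -0.034, and differently numbered ones with -0.155 to 0.153. With 3 libraries per genotype these values cannot decide whether the numbers pair the samples. On the recovered reads voom called the same 16 members. The limits set the sizes: 382 members at a mean of 10 RPKM and 85 at 50 RPKM. Of these 107 and 23 were separated, where 25.8% of all tested symbols were. At 20 RPKM there were 202 to 214 members when a single library was left out (added after seeing the data). The share of the RPKM sum, 7.18% in WT and 7.37% in KO, was 7.94% and 8.12% at 10 RPKM, 5.99% and 6.16% at 50 RPKM, 9.57% and 9.74% without the 100 most abundant other symbols, 5.90% and 6.15% without RP23-176J13.11, 3.43% and 3.60% of reads, and 7.14% to 7.23% in WT and 7.17% to 7.48% in KO without single libraries. Log2 changes near 0 in members that were never called changed sign without single libraries, with ranges of -0.019 to 0.104 in RP23-161F5.2, -0.181 to 0.015 in RP23-176J13.11, -0.269 to 0.013 in RP23-281H4.3, -0.0031 to 0.066 in RP23-323L3.5, -0.068 to 0.224 in RP23-334O19.2 and -0.079 to 0.049 in RP24-108G5.1, which was at 0.0063 with library weights. The cause of these shifts was not tested. Depth limits the members with few reads, such as RP23-178B19.8 in KO.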
